A study of Rattus norvegicus with 31 samples.

Results

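The 10 genes described here are the liver side of the growth hormone (GH), STAT5 and insulin-like growth factor (IGF) axis: the receptors Ghr and Prlr, the transducers Stat5a and Stat5b, the feedback inhibitors Socs2 and Cish, the hormone Igf1, its carrier subunit Igfals and the binding proteins Igfbp2 and Igfbp3. They were chosen by gene symbol, with earlier results of these data known. All 10 had a row among the 26312 annotated rat genes and were among the 19904 genes that passed the filter on low counts. Total RNA was sequenced from the livers of 31 female Wistar (Crl:WI) rats, 1 library per rat, after daily oral gavage for 28 days. The 8 control rats received the vehicle alone, aqueous carboxymethyl-cellulose, which every treated rat received as well. Thiacloprid (THI) was given to 4 rats at 108 mg/kg bw/day, imazalil (IMZ) to 4 rats at 93 mg/kg bw/day, and clothianidin (CTD) to 3 rats at 288 mg/kg bw/day. The paper marks this CTD group, and no other group sequenced, as having lost animals that were killed in moribund condition. The CTD livers are thus those of the remaining rats. The part of poor general condition in the CTD differences was not tested. The binary mixtures, 4 rats each, held 54 mg THI with 46 mg IMZ, 54 mg THI with 134 mg CTD, and 46 mg IMZ with 135 mg CTD per kg bw and day. THI and CTD are neonicotinoid insecticides and IMZ is an imidazole fungicide, and their doses alone differed, so the single compounds are given side by side and not ranked by potency.

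Pituitary GH binds its receptor on hepatocytes, the kinase JAK2 phosphorylates STAT5, and STAT5 drives transcription of Igf1, Igfals, Socs2 and Cish. The proteins of Socs2 and Cish in turn dampen the signal. In plasma, IGF-I circulates mainly in a complex with IGFBP-3 and the acid-labile subunit encoded by Igfals, while IGFBP-2 binds IGF-I outside that complex. In rats the liver is a sexually dimorphic GH target, because GH release is nearly continuous in females and strongly pulsatile in males, and the prolactin receptor is far more abundant in female than in male liver. Only transcript levels were measured, so GH release, STAT5 phosphorylation and plasma IGF-I are not covered.

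The control libraries held 32726300 to 101230067 counts and the treated libraries 31820322 to 54791509, and the lowest count of any of the 10 genes in a library was 171, for Cish. Levels are given in counts-per-million units (CPM) of the library total after TMM scaling. The tissue label was checked with 8 hepatocyte markers, none of which was at 0 in any group and which summed to between 163000 and 255000 CPM in every rat. CPM is not divided by transcript length, so levels of different genes are not compared with each other. In whole liver, fewer cells of a type and less RNA per cell cannot be told apart.

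Of the 60 comparisons of these genes with the controls, 6 passed an adjusted p of 0.05, the threshold used throughout (edgeR quasi-likelihood test, Benjamini-Hochberg adjustment over all genes tested). All 6 were lower levels, and they fell on Prlr, Stat5a, Stat5b and Igfbp3. After THI, 1 of the 10 genes passed, where 0.543% of all genes did, and after IMZ 0 of 10 against 0.251%, with 2 at an unadjusted p under 0.05. CTD alone gave 2 of 10 against 12.7% of all genes, a share near the background. All genes here include scarcely expressed ones. With edgeR's stricter filter on low counts, filterByExpr, 2817 of 13870 genes passed after CTD and 1072 after THI + CTD. Prlr passed there as well after CTD (edgeR adjusted p = 0.0467). The mixture THI + IMZ gave 0 of 10 against 1.18%, with 2 at an unadjusted p under 0.05. THI + CTD gave 3 of 10 against 4.39%, and IMZ + CTD gave 0 of 10 against 1.46%, with 2 at an unadjusted p under 0.05. At that unadjusted p there were 3 after THI, 5 after CTD and 6 after THI + CTD. Of all genes, 8.68% lay under it after THI, 8.08% after IMZ and 25.2% after CTD. The share was 11.1% after THI + IMZ, 17.6% after THI + CTD and 12.8% after IMZ + CTD. Marker and list counts at that p, given below, have the same background. DESeq2's Wald test gave 1 of 10 after THI, 0 after IMZ, 3 after CTD, 1 after THI + IMZ, 4 after THI + CTD and 1 after IMZ + CTD. In the same order, that test called 199, 150, 3007, 435, 1386 and 567 of the 19904 genes. The median log2 fold change of the 10 genes was -0.30 after CTD and -0.28 after THI + CTD, where all genes tested had medians of -0.07 and -0.03. It lay at -0.16 after THI, -0.14 after IMZ, -0.07 after THI + IMZ and -0.08 after IMZ + CTD. Because the 6 comparisons share the same 8 control rats, they are not independent of each other.

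**Figure D1:**
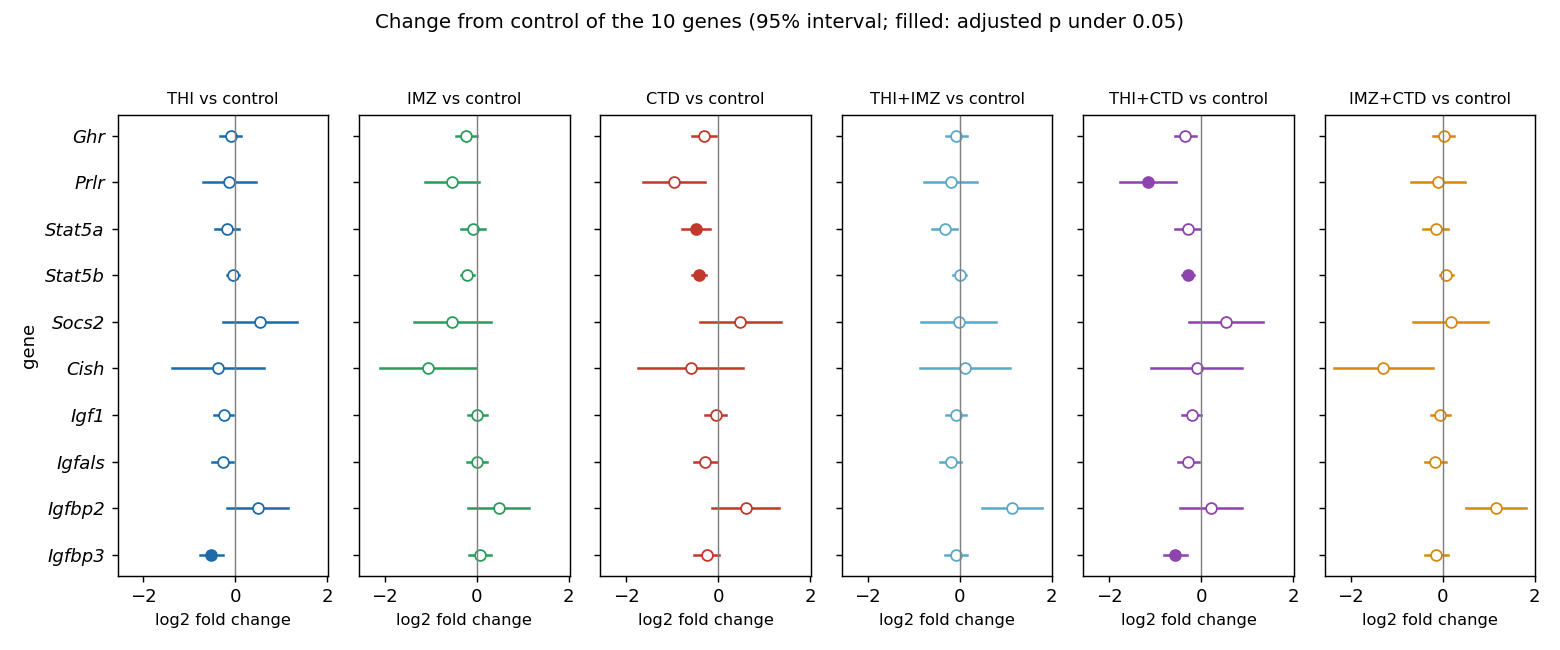
Log2 fold change from control (x axis) of the 10 genes (y axis) in each of the 6 treatments, as points with 95% intervals; filled points passed an adjusted p of 0.05. The 6 filled points all lie left of 0: Igfbp3 after THI, Stat5a and Stat5b after CTD, and Prlr, Stat5b and Igfbp3 after THI + CTD.

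Ghr, the GH receptor, passed the edgeR threshold in none of the 6 treatments. In controls it lay between 681 and 921 CPM with a median of 841 CPM. The CTD rats had 652, 719 and 633 CPM, and the THI + CTD rats 707, 658, 645 and 604 CPM. Both groups sat at or below the lower end of the control range, with 2 of 3 and 3 of 4 rats below every control. The log2 fold change of Ghr was -0.31 ± 0.13 (SE) after CTD (edgeR adjusted p = 0.101) and -0.35 ± 0.11 after THI + CTD (edgeR adjusted p = 0.0762), and after IMZ it was -0.23 ± 0.11 (edgeR adjusted p = 0.616). After IMZ + CTD the mean of 841 CPM was close to the control mean of 830 CPM. The lowest control value belonged to replicate 4, and without that rat the THI + CTD difference of Ghr became -0.38 with an edgeR adjusted p of 0.0417. It also passed without THI + IMZ replicate 2 (edgeR adjusted p = 0.0446) and, like the CTD difference (edgeR adjusted p = 0.0442), when only the groups compared were fitted (edgeR adjusted p = 0.0223). DESeq2's Wald test called Ghr after THI + CTD as well (adjusted p = 0.0298).

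Prlr, the prolactin receptor, is a class I cytokine receptor like GHR and signals through the same JAK2 and STAT5. Its level fell after THI + CTD. The 8 controls ranged from 220 to 483 CPM with a median of 396 CPM, and the THI + CTD rats had 188, 152, 146 and 225 CPM. All but 1 of these 4 rats lay below the lowest control. The log2 fold change was -1.15 ± 0.30 (SE, edgeR adjusted p = 0.0202), that is 45.2% of the control level. The CTD rats, at 237, 162 and 209 CPM, showed a log2 fold change of -0.96 ± 0.33 that missed the threshold (edgeR adjusted p = 0.052). The low control value again belonged to replicate 4. Without that rat the difference was -1.24 after THI + CTD (edgeR adjusted p = 0.0105) and -1.04 after CTD (edgeR adjusted p = 0.0307). Without THI + CTD replicate 2 or 3 the call in that group was lost, with edgeR adjusted p values of 0.0791 and 0.0966. The CTD difference, close to the threshold, also passed without THI replicate 1, 3 or 4, IMZ replicate 4 or THI + IMZ replicate 2 or 4, with edgeR adjusted p values from 0.0173 to 0.0497. It passed with DESeq2's Wald test (adjusted p = 0.0246), with edgeR's filterByExpr (adjusted p = 0.0467) and when only the CTD and control groups were fitted (edgeR adjusted p = 0.00435).

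The other groups spread widely in Prlr. THI rats had 239, 388, 600 and 210 CPM, and THI + IMZ rats 350, 576, 336 and 110 CPM. IMZ rats had 270, 252, 176 and 382 CPM, and IMZ + CTD rats 295, 405, 266 and 502 CPM. Each of these groups overlapped the controls, and the THI and THI + IMZ groups each held a rat above and a rat below every control. Across the 31 rats Prlr and Ghr moved together, with a Pearson r of 0.86 on log2 CPM and 0.78 after the group means were removed, as a description of libraries that share depth and scaling. The genes whose log2 CPM followed Prlr most closely over the 31 rats, of 10875 compared, were Asgr1, a subunit of the asialoglycoprotein receptor (r = 0.93), Itih4, a plasma protein (r = 0.92), and F7, coagulation factor VII (r = 0.90).

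STAT5 binds the spaced palindrome TTCNNNGAA, which reads the same on both strands. RefSeq promoter windows of 300 bases, from 250 bases before to 50 after a transcription start in the build GRCr8, were at hand for 9 of the 10 genes, as 10 windows, since Prlr had 2. The palindrome stood in 2 of the 10 windows, 1 of Prlr and that of Cish, and in 8.87% of all 33469 windows. Both windows are printed to show these letters, in capitals. They are reference sequence, not that of the rats used, a match is not a binding site, and no match says only that the letters are absent from these windows. The Prlr window, chr2:60909409-60909708 on the plus strand of GRCr8, holds 1 match, at base -176 from the start.
Prlr: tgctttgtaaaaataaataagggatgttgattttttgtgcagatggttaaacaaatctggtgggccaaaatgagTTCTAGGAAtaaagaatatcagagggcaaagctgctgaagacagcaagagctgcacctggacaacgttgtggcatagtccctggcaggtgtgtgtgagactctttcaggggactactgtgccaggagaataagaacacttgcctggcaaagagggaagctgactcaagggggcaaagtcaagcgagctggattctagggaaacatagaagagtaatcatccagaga
Cish holds 4 matches, at bases -241, -230, -136 and -119, on the plus strand of GRCr8 at chr8:116850719-116851018, and 2 windows of all 33469 (0.00598%) hold 4 or more.
Cish: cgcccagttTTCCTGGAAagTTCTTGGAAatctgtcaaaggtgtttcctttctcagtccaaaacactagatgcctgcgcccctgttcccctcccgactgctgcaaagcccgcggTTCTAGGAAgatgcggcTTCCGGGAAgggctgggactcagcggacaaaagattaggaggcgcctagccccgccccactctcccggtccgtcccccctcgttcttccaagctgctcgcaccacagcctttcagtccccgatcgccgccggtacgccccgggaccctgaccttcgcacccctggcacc

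**Figure D2:**
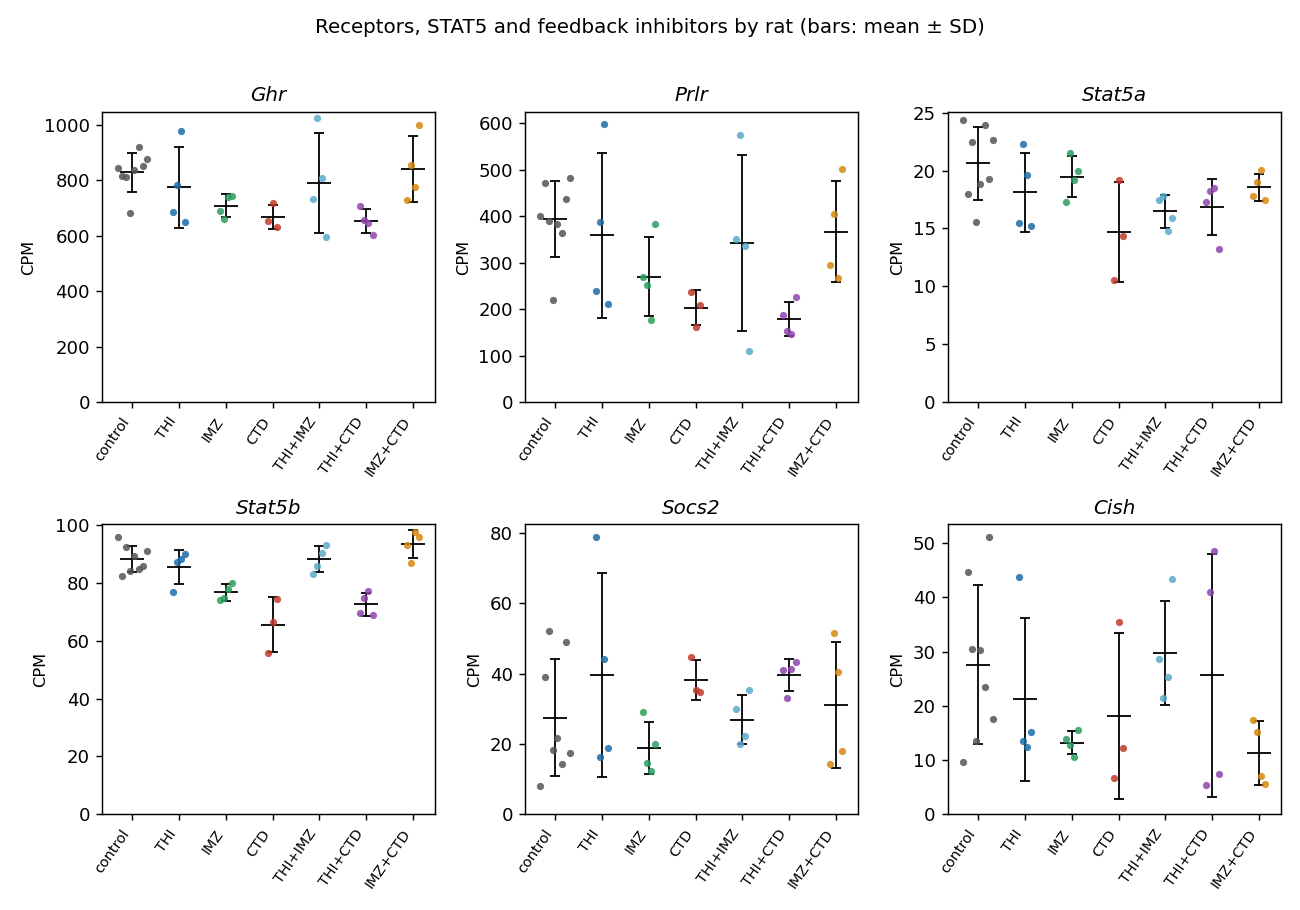
Level in CPM (y axis, from 0) of the receptors Ghr and Prlr, the transducers Stat5a and Stat5b and the feedback inhibitors Socs2 and Cish in each rat (points) of the 7 groups (x axis); bars are mean ± SD (n = 8 controls, 3 CTD rats, 4 rats in the other groups). The 3 CTD, 4 THI + CTD and 4 IMZ rats sit below all 8 controls in Stat5b, while Socs2 and Cish spread several-fold within the control group.

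Stat5b, the STAT5 form that predominates in liver, had the smallest adjusted p of the 10 genes among the 7 groups. The 8 controls lay in a narrow band from 82.5 to 95.8 CPM with a median of 87.6 CPM. The CTD rats had 55.9, 66.4 and 74.6 CPM, and the THI + CTD rats 69.8, 74.6, 77.1 and 69.0 CPM. The IMZ rats had 73.9, 74.8, 77.9 and 80.1 CPM. In these 3 groups every rat was below every control.

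Stat5b had a log2 fold change of -0.43 ± 0.08 (SE) after CTD (edgeR adjusted p = 0.000159), 74.3% of the control level. That call held in all 7 alternative settings run and with each of the 31 rats left out in turn, with edgeR adjusted p values of at most 0.0097 when a rat was left out. After THI + CTD it was -0.28 ± 0.07 (edgeR adjusted p = 0.0105), 82.3% of the control level. After IMZ it was -0.20 ± 0.07 and did not pass the threshold (edgeR adjusted p = 0.296), although the groups did not overlap. Among the 10 genes, all treated rats lay beyond all controls in 1 gene after CTD, where 10.8% of all genes tested did so, in 2 genes after THI + CTD against 3.96%, and in 1 gene after IMZ against 1.27%. After THI it was 1 gene, Igfals, against 1.42%, after THI + IMZ 0 against 1.46%, and after IMZ + CTD 0 against 2.62%.

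In the other groups Stat5b overlapped the controls, with 1 THI rat below and 2 IMZ + CTD rats above all of them. THI rats had 77.0, 87.1, 88.4 and 90.0 CPM, THI + IMZ rats 83.2, 85.8, 90.4 and 93.3 CPM, and IMZ + CTD rats 93.0, 86.9, 97.7 and 96 CPM. In order of their means, the groups ran from IMZ + CTD (93.4 ± 4.75 CPM, SD) over control (88.3 ± 4.64), THI + IMZ (88.2 ± 4.51), THI (85.6 ± 5.86), IMZ (76.7 ± 2.84) and THI + CTD (72.6 ± 3.90) to CTD (65.6 ± 9.40). Neighbours in this order all had overlapping ranges. A test of any difference among the 7 groups called Stat5b (edgeR adjusted p = 0.000244) and Igfbp3 (edgeR adjusted p = 0.00315), 2 of the 10 genes against 9.51% of all genes. The genes that followed Stat5b most closely over the 31 rats were Rpl38, a ribosomal protein gene (r = 0.86), Atp5j2, which encodes a subunit of ATP synthase (r = 0.82), and Kat6b, a histone acetyltransferase gene (r = 0.80).

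Stat5a, the paralogue of Stat5b, was lower after CTD. Controls had 15.6 to 24.3 CPM with a median of 20.9 CPM, and the CTD rats had 10.5, 19.2 and 14.4 CPM. Of these, 2 rats lay below every control and 1 within the control range. The log2 fold change was -0.49 ± 0.15 (SE, edgeR adjusted p = 0.0245), 71.2% of the control level. The call rested on single CTD rats, with edgeR adjusted p values of 0.273 without CTD replicate 1 and 0.0774 without CTD replicate 3, and it was also lost when only the CTD and control groups were fitted (edgeR adjusted p = 0.0746).

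For Stat5a the log2 fold change was negative in all 6 treatments, but in the other 5 it ranged from -0.33 after THI + IMZ (edgeR adjusted p = 0.316) to -0.08 after IMZ (edgeR adjusted p = 0.893). Stat5a and Stat5b are neighbours on chromosome 10, and their coding sequences are near-identical over long stretches. The study used uniquely mapped reads, so reads that match both genes equally well are in neither count, and the levels of both are uncertain to that extent. Over the 31 rats the 2 genes had a Pearson r of 0.52. The closest followers of Stat5a were 5330417C22Rik (r = 0.74), the Wnt co-receptor gene Lrp5 (r = 0.70) and Smoc1 (r = 0.70).

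Socs2 and Cish encode SH2-domain proteins of the SOCS family and are classical STAT5 targets that limit GH signalling. Neither was called, and both varied several-fold among the 8 control rats. Socs2 ran from 8.10 to 52.1 CPM in controls with a median of 20.0 CPM, and Cish from 9.66 to 51.1 CPM with a median of 26.8 CPM. The control SD was 61.0% of the mean for Socs2 and 53.0% for Cish, where it was 5.25% for Stat5b.

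Cish had 13.9, 12.8, 10.6 and 15.6 CPM in IMZ rats, and 17.4, 15.2, 7.08 and 5.49 CPM in IMZ + CTD rats. The IMZ rats sat in the lower part of the control range, and of the IMZ + CTD rats 2 sat there and 2 lay below every control. The log2 fold change was -1.06 ± 0.51 (SE) after IMZ (edgeR adjusted p = 0.612) and -1.29 ± 0.52 after IMZ + CTD (edgeR adjusted p = 0.273), with a 95% interval of -2.35 to -0.22 for the latter. In THI + CTD rats the 4 values fell apart into 5.40 and 7.47 CPM on the one side and 41.0 and 48.6 CPM on the other. CTD rats had 6.74, 35.5 and 12.2 CPM, and THI + IMZ rats 28.7, 21.4, 25.4 and 43.4 CPM. The THI rats had 43.8, 13.5, 12.4 and 15.1 CPM, so that 1 rat lay far above the other 3.

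Socs2 had 44.7, 35.2 and 34.7 CPM in CTD rats and 40.9, 33.1, 41.3 and 43.4 CPM in THI + CTD rats. Both groups lay within the control range, with log2 fold changes of 0.48 ± 0.43 (SE, edgeR adjusted p = 0.53) and 0.53 ± 0.39 (edgeR adjusted p = 0.506). IMZ rats had 28.9, 14.7, 12.2 and 19.9 CPM, a log2 fold change of -0.53 ± 0.41 (edgeR adjusted p = 0.761). The THI rats spread from 16.4 to 79.0 CPM. In the 6 comparisons the 95% intervals of Socs2 reached down to -1.37 and up to 1.36. Within the controls, the rat with the lowest Socs2 value, replicate 1, had the lowest Cish value too, and over the 31 rats the Pearson r between these genes was 0.28.

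Igf1, the circulating growth factor made by hepatocytes, was held in a narrow range. Controls had 429 to 578 CPM with a median of 491 CPM. THI rats had 468, 354, 453 and 402 CPM, and THI + CTD rats 535, 370, 400 and 423 CPM. In the THI group 2 of 4 rats, and in the THI + CTD group 3 of 4, lay below every control. For Igf1 the log2 fold change was -0.25 ± 0.10 (SE) after THI (edgeR adjusted p = 0.462) and -0.21 ± 0.10 after THI + CTD (edgeR adjusted p = 0.291), and neither passed the threshold. After IMZ it was 0.01 ± 0.10, with a 95% interval of -0.20 to 0.22, and after CTD it was -0.05, with an interval of -0.29 to 0.18.

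Igfals, which encodes the acid-labile subunit, was not called in any treatment. The THI rats had 376, 348, 369 and 359 CPM, all below the 8 controls, which ranged from 386 to 539 CPM with a median of 425 CPM. The groups did not overlap, but the log2 fold change of -0.27 ± 0.11 (SE) had an edgeR adjusted p of 0.439. CTD rats had 292, 382 and 410 CPM, a log2 fold change of -0.28 ± 0.12 (edgeR adjusted p = 0.137), and THI + CTD rats had 364, 348, 400 and 337 CPM, with -0.28 ± 0.11 (edgeR adjusted p = 0.16). After IMZ the log2 fold change was 0.00, with a 95% interval of -0.22 to 0.22. Over the 31 rats Igf1 and Igfals had a Pearson r of 0.66, and 0.59 after the group means were removed.

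**Figure D3:**
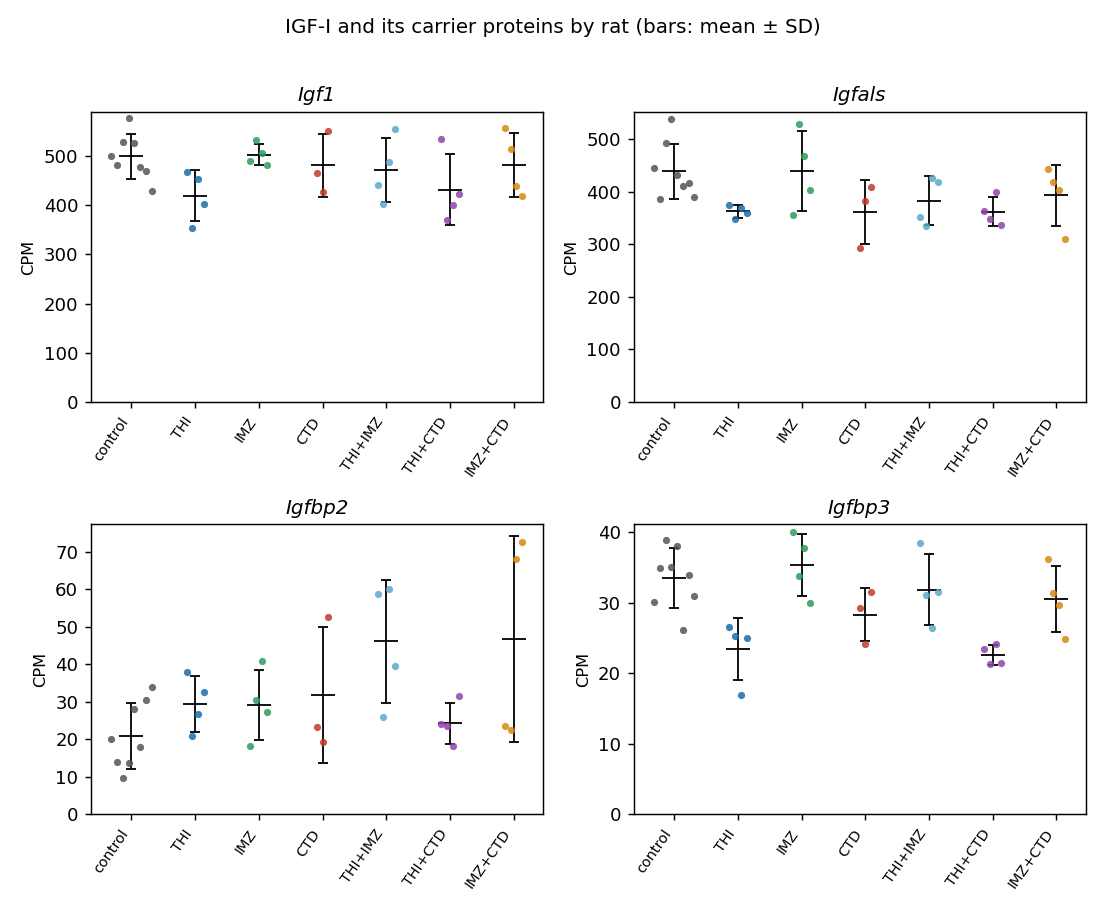
Level in CPM (y axis, from 0) of Igf1, Igfals, Igfbp2 and Igfbp3 in each rat (points) of the 7 groups (x axis); bars are mean ± SD (n = 8 controls, 3 CTD rats, 4 rats in the other groups). The 4 THI + CTD rats sit below all 8 controls in Igfbp3, and 3 of 4 THI + IMZ rats and 2 of 4 IMZ + CTD rats sit above all controls in Igfbp2.

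Igfbp3, the main carrier of IGF-I in plasma, fell after THI and after THI + CTD. Controls had 26.2 to 38.9 CPM with a median of 34.5 CPM. The THI + CTD rats had 23.5, 21.4, 24.2 and 21.4 CPM, all below every control. The THI rats had 26.5, 25.2, 16.8 and 24.9 CPM, of which 3 lay below every control. Igfbp3 had a log2 fold change of -0.57 ± 0.12 (SE) after THI + CTD (edgeR adjusted p = 0.00478), 67.5% of the control level, and -0.52 ± 0.12 after THI (edgeR adjusted p = 0.037), 69.8% of the control level.

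The call after THI + CTD held in all 7 alternative settings run and with each of the 31 rats left out in turn, with edgeR adjusted p values of at most 0.025 when a rat was left out. The call after THI did not: it was lost when control replicate 2, 3, 5 or 7 or THI replicate 2, 3 or 4 was left out, with edgeR adjusted p values of 0.052, 0.0768, 0.0721, 0.0607, 0.0711, 0.237 and 0.0647. It was also lost when only the THI and control groups were fitted, where the edgeR adjusted p was 0.0864. CTD rats had 29.2, 24.1 and 31.4 CPM, and 1 of them lay below the controls (log2 fold change -0.25 ± 0.13, edgeR adjusted p = 0.253). IMZ, THI + IMZ and IMZ + CTD rats ranged from 24.8 to 40.0 CPM and overlapped the controls.

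In order of the means of Igfbp3, IMZ (35.3 ± 4.45 CPM, SD) and control (33.5 ± 4.25) were followed by THI + IMZ (31.9 ± 5.01), IMZ + CTD (30.5 ± 4.71), CTD (28.3 ± 3.76), THI (23.4 ± 4.40) and THI + CTD (22.6 ± 1.44), with overlapping ranges between all neighbours. The genes that followed Igfbp3 most closely over the 31 rats were Lrg1, a secreted glycoprotein gene (r = 0.71), Psd4 (r = 0.70) and Hhip, which encodes a binding protein of hedgehog ligands (r = 0.68).

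In liver, Igfbp3 is transcribed largely by the non-parenchymal cells, the Kupffer cells (resident macrophages) and sinusoidal endothelial cells, so their markers are given beside it. Of 7 Kupffer cell markers tested, 0 passed the threshold after THI (edgeR, none at an unadjusted p under 0.05), and their summed level was 371 to 593 CPM in THI rats and 376 to 603 CPM in controls. After THI + CTD 3 of 7 fell, Cd163, Csf1r and C1qa, where 4.39% of all genes passed, and the sum was 316 to 384 CPM. After CTD 3 of 7 fell, Cd68, Csf1r and C1qa, where 12.7% of all genes passed, and the sum was 299 to 424 CPM. In 2 treatments where Igfbp3 was not called, 0 of 7 passed but several had an unadjusted edgeR p under 0.05. These were 4 after IMZ + CTD (sum 265 to 474 CPM, median log2 fold change -0.34) and 3 after THI + IMZ (sum 321 to 441 CPM, median -0.27). Of all genes, 12.8% and 11.1% had such a p in these 2 treatments. Of 8 sinusoidal endothelial markers, Kdr fell after CTD and after THI + CTD and 0 passed after THI, with sums of 341 to 428 CPM in controls, 349 to 393 CPM after THI, 294 to 377 CPM after CTD and 303 to 370 CPM after THI + CTD. None of these markers was at 0 in any group. The part of these cells in the Igfbp3 difference after THI + CTD was not tested.

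Markers of the remaining cell types moved less uniformly in the 2 treatments that lowered Stat5b. These were CTD, where 12.7% of all genes passed, and THI + CTD, where 4.39% did. Of 8 stellate cell and fibroblast markers, after CTD Col3a1 rose and Reln fell, and after THI + CTD Col1a1 rose and Reln and Hgf fell. Their sum was 271 to 457 CPM in controls, 384 to 525 CPM after CTD and 361 to 489 CPM after THI + CTD. Of 8 hepatocyte markers, Ass1 fell after CTD and Serpina1 after THI + CTD, and in THI + IMZ rats Apoa1 rose. No bile duct marker (5 tested) and no T, NK or B cell marker (6 tested, 1 of them at 0 in all IMZ + CTD rats) passed in any treatment, and at an unadjusted p under 0.05 there were 1 bile duct marker each after CTD, THI + CTD and IMZ + CTD and 1 and 2 lymphocyte markers after THI + CTD and IMZ + CTD. The part of these cells in the differences of Stat5b, Stat5a and Prlr was not tested.

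**Figure D4:**
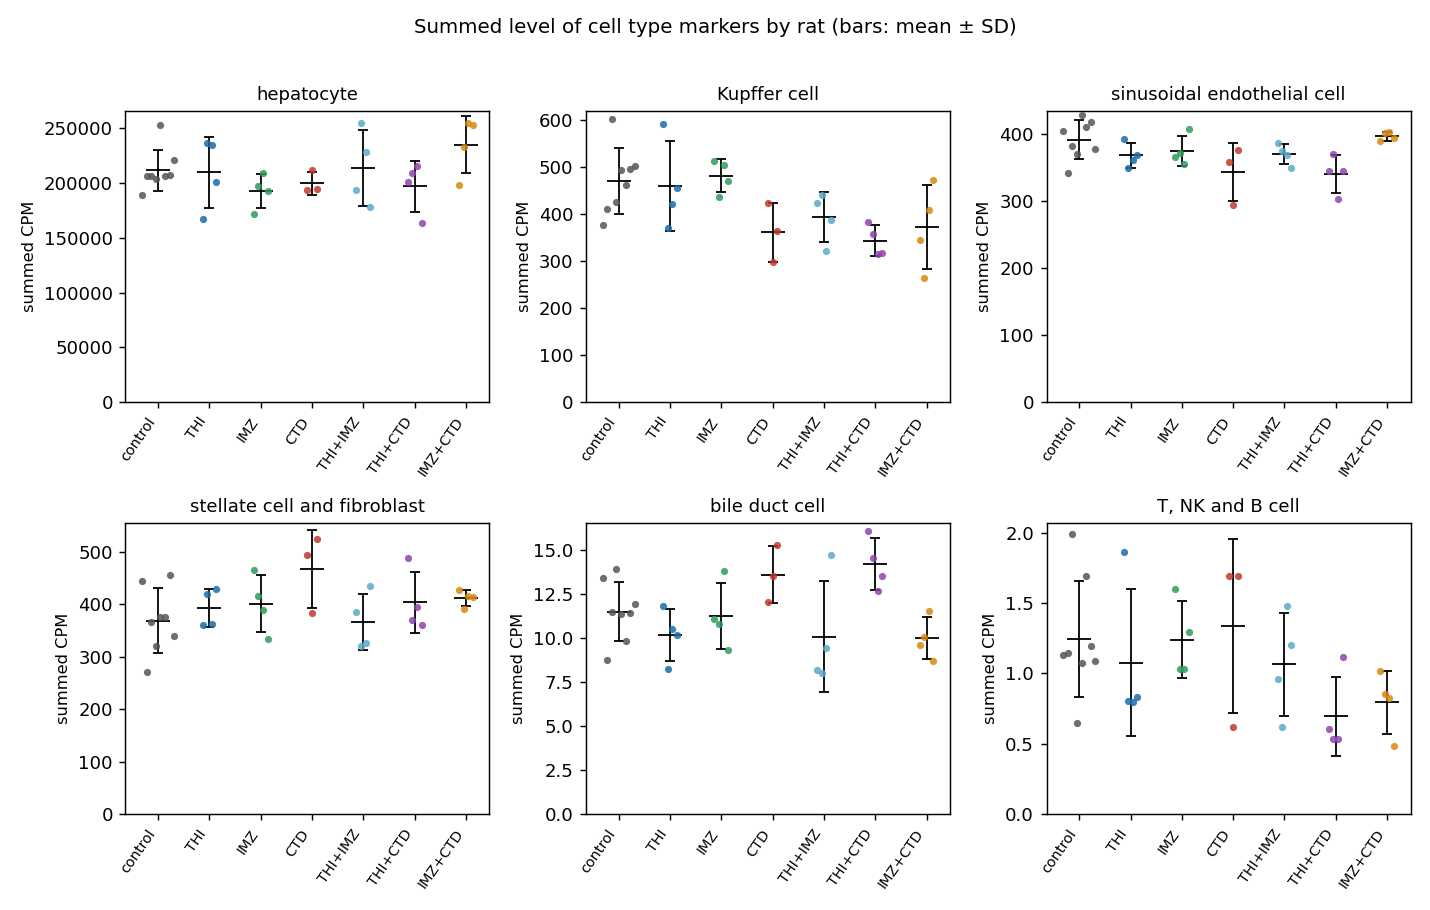
Summed CPM (y axis, from 0) of the markers of 6 cell types in each rat (points) of the 7 groups (x axis); bars are mean ± SD (n = 8 controls, 3 CTD rats, 4 rats in the other groups). The Kupffer cell sum of the THI + CTD rats (316 to 384 CPM) lies at or below the lower end of the control range (376 to 603 CPM), while that of the THI rats (371 to 593 CPM) spans it.

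Igfbp2 was the only one of the 10 genes with a higher fitted level than in controls in all 6 treatments, although it passed the threshold in none. It had 9.66 to 33.8 CPM in controls with a median of 19 CPM. THI + IMZ rats had 58.9, 25.8, 60.2 and 39.5 CPM, and IMZ + CTD rats 23.6, 22.4, 68.1 and 72.8 CPM. In the first group 3 of 4 rats, and in the second 2 of 4, lay above every control. The log2 fold change was 1.14 ± 0.32 (SE) after THI + IMZ (edgeR adjusted p = 0.077) and 1.16 ± 0.32 after IMZ + CTD (edgeR adjusted p = 0.0603), that is 220% and 223% of the control level.

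The other treatments gave smaller values of Igfbp2. CTD rats had 23.3, 19.2 and 52.5 CPM, IMZ rats 18.1, 30.5, 40.9 and 27.3 CPM, THI rats 37.9, 20.8, 26.6 and 32.6 CPM, and THI + CTD rats 24.1, 23.5, 18.1 and 31.4 CPM. All 4 groups overlapped the controls, with log2 fold changes between 0.21 and 0.60. With DESeq2's Wald test Igfbp2 passed after THI + IMZ (adjusted p = 0.0458) and after IMZ + CTD (adjusted p = 0.0357). In edgeR it passed after THI + IMZ without control replicate 8 or THI + IMZ replicate 2 (adjusted p = 0.0478 and 0.0445). After IMZ + CTD it passed without control replicate 7 or 8, CTD replicate 3 or IMZ + CTD replicate 1 or 2, with edgeR adjusted p values from 0.0203 to 0.0495.

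Each mixture was set against a dose-weighted sum on the log2 scale, 0.5 times the log2 fold change of THI or IMZ and 0.47 times that of CTD. The sum takes log2 fold changes as proportional to dose, and only 1 dose level was sequenced. The paper holds that recommended models of mixture effects cannot be applied to 1 dose level. Whether a gap from the sum comes from the mixture or from the shape of the dose response was not tested. Against that sum 1 gene differed: Stat5b in IMZ + CTD rats. The weighted sum was -0.30, the mixture showed 0.08, and the difference was 0.38 ± 0.07 (SE, 95% interval 0.25 to 0.52, edgeR adjusted p = 0.00209). In 4 of 4 IMZ + CTD rats Stat5b lay above all CTD rats and all IMZ rats, and 2 of them lay above every control. For IMZ + CTD, 1 of 10 genes passed against 1.16% of all genes.

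Ghr and Prlr leaned the same way in IMZ + CTD rats without passing. Ghr differed from its weighted sum by 0.28 ± 0.11 (edgeR adjusted p = 0.229) and Prlr by 0.62 ± 0.28 (edgeR adjusted p = 0.3). For THI + CTD 0 of 10 genes passed against 0.286%. At an unadjusted p under 0.05 there was 1, Prlr (-0.63 ± 0.29, edgeR adjusted p = 0.493), against 9.66% of all genes. The Stat5b mixture value of -0.28 lay near its weighted sum of -0.22. The Igfbp3 difference from the sum was -0.19 ± 0.12 (edgeR adjusted p = 0.632). For THI + IMZ 0 of 10 passed against 0.0151%, also with 0 at an unadjusted p under 0.05, and DESeq2 gave 0 for both THI + IMZ and THI + CTD. Igfbp2 differed there by 0.65 ± 0.32 from a sum of 0.49 (edgeR adjusted p = 0.776).

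**Figure D5:**
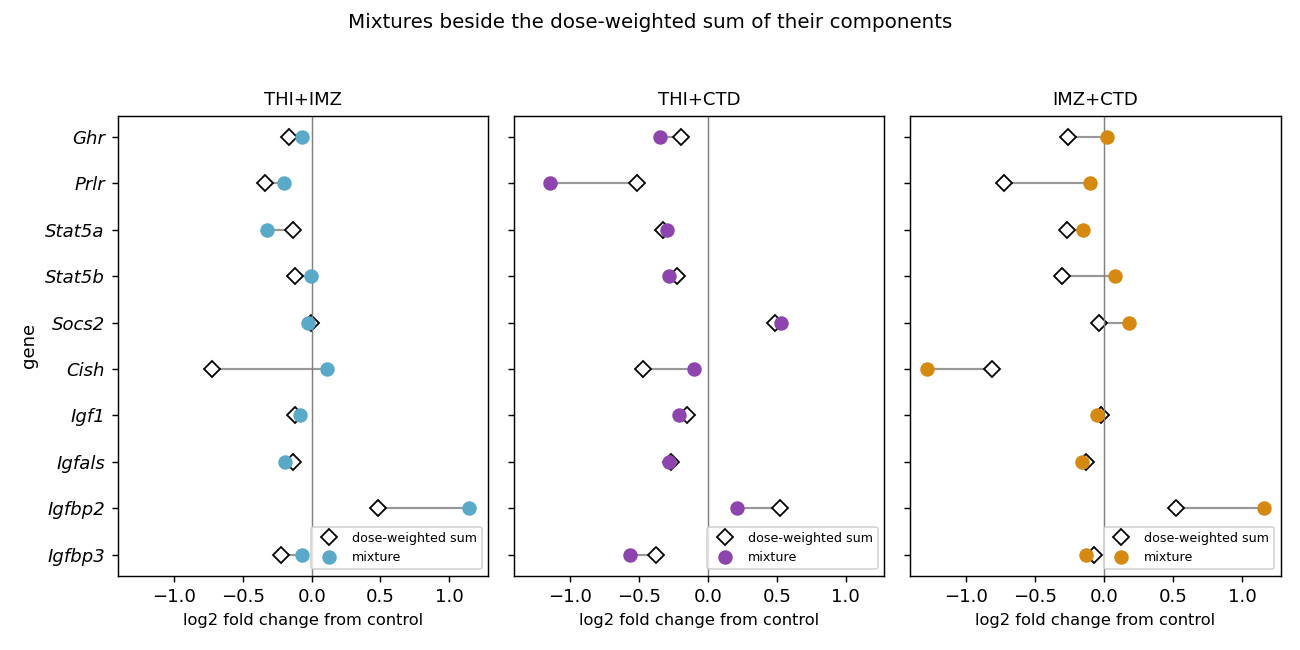
Log2 fold change from control (x axis) of the 10 genes (y axis) in each mixture (filled points) and the dose-weighted sum of its single compounds (open diamonds), joined by a grey line. The gap of Stat5b in IMZ + CTD rats, from -0.30 to 0.08, is the one that passed an adjusted p of 0.05.

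Other genes of the pathway were read from lists chosen by role, with earlier results of these data known. The list counts set beside the share of all genes are thus a description. Of 16 genes listed for GH receptor signalling, some of them receptors for other ligands, 4 fell after CTD and 0 rose. In that treatment 12.7% of all genes passed, 1200 down and 1318 up. The 4 genes were Sh2b1, an adaptor of JAK2 (log2 fold change -0.59, edgeR adjusted p = 0.000121), the insulin receptor substrates Irs1 (-0.45) and Irs2 (-1.25), and the leptin receptor Lepr (-0.78). After THI + CTD 2 of 16 fell, Irs2 (-1.71) and Lepr (-0.71), and after IMZ 1 of 16 fell, Lepr (-1.07). The share of all genes that passed was 4.39% after THI + CTD, 0.251% after IMZ and 1.18% after THI + IMZ. Lepr had 8.22 to 10.2 CPM in IMZ rats, below the controls at 12.2 to 24.5 CPM. After THI + IMZ 1 rose, Socs3, another SOCS inhibitor, singled out here after its values were seen (log2 fold change 1.59, 3.79 to 40.7 CPM against 3.53 to 9.76 CPM in controls, overlapping groups). After THI and IMZ + CTD 0 passed, with 0 and 3 at an unadjusted p under 0.05, and Jak2, the kinase itself, passed in none of the 6 comparisons. The median log2 fold change of this list lay between -0.12 after CTD and -0.03 after THI.

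Of 14 further IGF and insulin genes, 4 fell and 1 rose after CTD, where 12.7% of all genes passed. After THI + CTD 1 fell, where 4.39% of all genes passed. Igfbp1, the insulin-regulated IGF binding protein and neighbour of Igfbp3 on chromosome 14, fell in both treatments. It spread from 64.2 to 691 CPM in controls, against 13.3 to 69.0 CPM in CTD rats (log2 fold change -2.77, edgeR adjusted p = 0.00944) and 5.09 to 74.6 CPM in THI + CTD rats (-3.34, edgeR adjusted p = 0.00252). In both groups the highest rat overlapped the lowest control. Htra1, a protease that cleaves IGF binding proteins, fell after CTD from 55.9 to 79.8 CPM in controls to 21.1 to 31.3 CPM, with no overlap (-1.35, edgeR adjusted p = 2.76e-09). The insulin receptor Insr (-0.28) and Igfbp4 (-0.45) fell after CTD as well, and Igfbp7 (0.29), named after its value was seen, rose. In the other 4 treatments 0 of 14 passed, with 1 or 2 at an unadjusted p under 0.05, and the list medians lay between -0.23 after CTD and -0.03 after THI.

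Liver genes whose level follows the sex pattern of GH release gave few calls. As background, 12.7% of all genes passed after CTD and 4.39% after THI + CTD. Of 8 genes that are higher in female rats, Cux2, a female-biased transcription factor, fell after CTD (-0.48), A1bg, a plasma glycoprotein gene, fell after THI + CTD (-1.16, 2250 to 3450 CPM against 3830 to 9490 CPM in controls), and 0 passed elsewhere, with 1, 0, 2 and 0 at an unadjusted p under 0.05 after THI, IMZ, THI + IMZ and IMZ + CTD. Cyp2c12, the classical female-specific cytochrome P450, had 4550 to 5820 CPM in controls and 4560 to 6260 CPM in treated rats, and it passed in none. Of 9 genes that are higher in male rats, 5 could be tested and 0 passed in any treatment, with at most 2 at an unadjusted p under 0.05. Cyp2c11, the male-specific P450, reached at most 0.324 CPM in controls and 3.32 CPM in any treated rat, in the THI + IMZ group. The 4 THI + CTD rats had 0.41 to 1.79 CPM of Cyp2c11, all above every control (log2 fold change 3.34, edgeR adjusted p = 0.0797). In that treatment 3.96% of all genes tested lay beyond all controls. Serpina3n, listed with the liver factors that act with STAT5 although it encodes a secreted protease inhibitor, fell after CTD (-0.60). In the other 5 treatments 0 of the 8 genes of that list passed, with 2 at an unadjusted p under 0.05 each after IMZ and THI + CTD.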

How the data were processed

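Total RNA libraries from the livers of 31 rats were prepared with a stranded total RNA kit, read quality was checked with FastQC 0.11.5 and reads were aligned to Rnor_5.0 and counted per gene with STAR 2.5.2b, using uniquely mapped reads, per the labels and the study's methods. The strand setting of the counting and the annotation release are not given in the sources used here. The authors deposited raw counts of 26312 genes per library, and a second table of 19904 genes, unit signal, that equals the deposited counts divided by DESeq2 size factors within a relative deviation of 4.98e-15 and was used here only for that check.

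The 19904 genes whose counts summed to 2 or more over the libraries were fitted with 1 mean per group over all 31 libraries in edgeR 4.0.16 (R 4.3.3, TMM scaling, quasi-likelihood F test), and p-values were adjusted by the Benjamini-Hochberg method over all genes. Fold changes are log2 values of this fit, and CPM for plots and correlations uses TMM library sizes, with a prior count of 2 on the log2 scale for correlations. Alternatives were DESeq2 1.42.0 (Wald test, a likelihood ratio test among the 7 groups, or its size factors in edgeR), filterByExpr, no filter, a replicate number block, fits of only the groups compared, each library left out, and edgeR's newer quasi-likelihood method, the last chosen after seeing the data. The fit was tested on simulated data. No pair of libraries within a group (61 pairs) was a duplicate by a chi-square test of counts. Pairs from different groups were not tested. The labels number the libraries within a group as replicates, and the study's methods give 1 rat for each.

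The members and gene lists were chosen with earlier results of these data known. All 10 members are named. Of listed genes at most the 4 with the smallest adjusted p per list and the 3 genes with the highest correlation to each called member (mean log2 CPM above 0) are named, with any exception stated. Jak2 and Cyp2c12 are named outside that rule. A gene of the lists is not reported here. Promoter windows, gene names and gene neighbours are from RefSeq, GRCr8, which differs from the build of the counts.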

Additional observations from a re-analysis of the deposited data

Results flagged for a closer look

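Among 60 sets of 4 to 8 rats (10 genes in each of 6 groups), 4 values stood apart from the rest of their group by Dixon's test at the 95% level. Chance alone would give about 1 in 20 such sets. The 3 CTD rats were too few for this test. Control replicate 4 was lowest in Ghr, at 681 CPM with the next control at 811 CPM, and also lowest in Prlr, at 220 CPM with the next control at 364 CPM. THI replicate 1 was highest in Cish, at 43.8 CPM with the next THI rat at 15.1 CPM. THI replicate 3 was lowest in Igfbp3, at 16.8 CPM with the next THI rat at 24.9 CPM, and without it the fall of Igfbp3 after THI had a log2 fold change of -0.39 and an edgeR adjusted p of 0.237.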

How the results depend on the processing

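No value of the 10 genes that passed the threshold, in the fit reported or in an alternative, changed its direction. Values that passed in neither changed sign in 8 of 420 cases under the other settings and in 46 of 1860 with 1 rat left out, as Stat5b after THI + IMZ did, while 397 and 1787 values kept their direction and their side of the threshold. DESeq2's Wald test gave 3 of the 10 genes after CTD, 1 after THI + IMZ, 4 after THI + CTD and 1 after IMZ + CTD, and its likelihood ratio test 4 among the 7 groups. When only the groups compared were fitted, THI had 0. Leaving out each rat in turn gave 0 to 1 gene after THI, 1 to 3 after CTD, 0 to 1 after THI + IMZ, 2 to 4 after THI + CTD, 0 to 1 after IMZ + CTD and 2 to 3 among the 7 groups.

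With the replicate block, the replicate number as a further term, 0 of the 10 genes passed after THI, 1 after THI + IMZ, 1 after THI + CTD and 1 after IMZ + CTD. Lost were Igfbp3 after THI (edgeR adjusted p = 0.0672) and, after THI + CTD, Prlr (edgeR adjusted p = 0.161) and Stat5b (edgeR adjusted p = 0.0528), and gained was Igfbp2 after THI + IMZ (edgeR adjusted p = 0.0263) and IMZ + CTD (edgeR adjusted p = 0.0356). Whether the numbers pair the rats could not be told from correlations between rats of different groups, taken after the group means were removed. Same-number pairs had a mean correlation of 0.029 over 78 pairs, 20 of them over 0.1. Other-number pairs had a mean of -0.007 over 326 pairs, 55 of them over 0.1. When each rat's correlations were averaged by number, the mean was highest for its own number in 6 of 31 rats.

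Counts over all genes depended on the method. DESeq2's Wald test called 199 genes after THI (108 in the edgeR fit reported), 150 after IMZ (50) and 3007 after CTD (2518). It called 435 after THI + IMZ (235), 1386 after THI + CTD (873) and 567 after IMZ + CTD (290). The likelihood ratio test called 3329 among groups (1893). Off the weighted sums for THI + IMZ, THI + CTD and IMZ + CTD, the Wald test called 54, 174 and 603 genes (3, 57 and 230). The replicate block called 45, 23, 1571, 53, 348, 80 and 1216 genes in THI, IMZ, CTD (2518), THI + IMZ, THI + CTD, IMZ + CTD and among groups, and 6 off the THI + IMZ sum. FilterByExpr called 391 genes off the IMZ + CTD sum, and a fit of only IMZ and control rats 93. With groups of 3 or 4 rats and at least 171 counts per gene and library, Socs2 and Cish had 95% intervals over 1.5 log2 units wide in each comparison with control.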
